A study of Mus musculus with 12 samples.

Results

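The immunoglobulin variable (V) gene segments are the rows that the deposited count table annotates with the biotype IG_V_gene, 218 of 56748 rows. They were taken by that annotation and grouped by the start of the gene name. The group Ighv (heavy chain) held 113 rows, Igkv (kappa light chain) 100 and Iglv (lambda light chain) 3, and the other 2 rows, Gm43218 and Gm42543, carried no such prefix. The libraries are RNA sequencing of lung from MMTV-PyMT mice aged 4.5 months, a model in which an oncogene driven by the MMTV promoter gives mammary tumours that spread to the lung, and the labels name lung metastasis as the condition sampled. There were 12 libraries in 3 groups of 4. C3 KO lungs carried MMTV-Cre, the allele written C3Tdt and MMTV-PyMT. S1pr1 KO lungs carried MMTV-Cre, S1pr1fl/fl and MMTV-PyMT. WT lungs carried MMTV-Cre and MMTV-PyMT. All groups therefore shared the oncogene and the recombinase. The MMTV promoter acts chiefly in mammary epithelium, so whole-lung levels need not show a deletion. The title of the series asks how C3 and S1pr1 bear on lung metastasis.

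A V segment encodes most of the antigen-binding domain of one antibody chain. Each B cell joins one V segment of each chain to short D or J segments, and the joined gene is transcribed at a level that rises greatly when the cell matures into an antibody-secreting plasma cell. A tissue in which many different B cells and plasma cells contribute RNA therefore shows many V segments at modest shares, while a large clone of secreting cells gives its own heavy and light segment a large share. The kappa chain is used far more often than the lambda chain in mice. In whole tissue, fewer cells of a type and less RNA per cell cannot be told apart.

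Total counts per library lay between 32274797 and 53063470, and between 26691 and 28277 genes had at least 1 read. The lung transcripts Sftpc of alveolar type 2 cells and Scgb1a1 of club cells were abundant, at 9410.7 CPM or more and 12581.8 CPM or more in all 12 libraries (CPM, each count divided by its library's TMM-scaled size in edgeR). C3 was at 465 to 601 CPM in C3 KO 1, 2 and 3, whereas 1416 CPM was found in the library labelled C3 KO 4, against 787 to 1025 CPM in WT. S1pr1 was at 132 to 154 CPM in S1pr1 KO 1, 3 and 4, whereas 366 CPM was found in the library labelled S1pr1 KO 2, against 295 to 491 CPM in WT. These libraries differed from the others of their group in the gene that their label names. Whole-lung levels need not show a deletion, so this does not settle their genotype. Chain sums, shares, effective numbers, directions and the fold changes of named segments are therefore mostly given with and without them where they entered the groups compared. Whether the 4 libraries of a group are from different mice is not stated, and p-values reflect only how these samples vary.

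The sequences below are the last 90 bases of the annotated transcripts of 9 segments (GENCODE M21, build GRCm38, read 5′ to 3′ on the coding strand and matched by gene identifier). They were chosen because each is the leading or second segment of its chain in at least 1 library, and they show how unlike or alike segments of a chain are. Capitals mark the motif TATTNNTG, which encodes the conserved tyrosine and cysteine at the end of the V framework.
Ighv1-26: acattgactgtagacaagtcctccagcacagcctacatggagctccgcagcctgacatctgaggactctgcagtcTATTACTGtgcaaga
Ighv1-50: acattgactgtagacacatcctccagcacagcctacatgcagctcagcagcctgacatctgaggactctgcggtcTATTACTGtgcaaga
Ighv1-11: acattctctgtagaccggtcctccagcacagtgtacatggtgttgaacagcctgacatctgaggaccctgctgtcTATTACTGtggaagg
Igkv16-104: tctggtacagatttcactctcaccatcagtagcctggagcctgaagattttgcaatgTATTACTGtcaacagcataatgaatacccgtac
Igkv6-15: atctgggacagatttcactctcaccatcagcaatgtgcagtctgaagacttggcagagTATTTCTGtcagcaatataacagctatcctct
Igkv8-16: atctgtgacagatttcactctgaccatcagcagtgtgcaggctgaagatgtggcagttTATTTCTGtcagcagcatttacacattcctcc
Igkv14-111: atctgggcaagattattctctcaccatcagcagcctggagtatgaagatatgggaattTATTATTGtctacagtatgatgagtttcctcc
Iglv1: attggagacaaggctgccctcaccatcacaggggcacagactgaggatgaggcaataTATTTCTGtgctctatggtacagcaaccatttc
Iglv2: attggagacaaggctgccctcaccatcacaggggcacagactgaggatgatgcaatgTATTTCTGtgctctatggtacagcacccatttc

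The motif was present on the coding strand in the last 90 bases of 182 of the 218 segments (83.5%), against 3.62% of 139563 other annotated transcripts, and only that strand was searched. A match is a description of the letters. Over their last 250 bases, Iglv1 and Iglv2 were 97.2% identical, Ighv1-26 and Ighv1-50 were 85.2% identical, and Ighv1-26 and Ighv1-11 were 80.0% identical. The segment most like each member was identical at a median of 94.8% of those bases, and 27 members had a partner at 98% or more. Reads of such pairs may have been split between rows, so values of close pairs are uncertain. Ighv1-11 (82.8% to Ighv1-76) and Igkv16-104 (75.2% to Igkv9-123) had no close partner, while Igkv8-16 was identical to Gm43218 over these bases.

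Of the 218 segments, 208 had at least 1 read, and the 10 at 0 in all libraries were Ighv1-24, Ighv1-62-1, Ighv5-12-4, Ighv7-2, Ighv8-9, Ighv8-13, Ighv11-1, Ighv16-1, Igkv1-35 and Iglv3. The segments together took 20749 Ighv reads, 37205 Igkv reads and 4534 Iglv reads, and the 2 rows without a prefix took 10 reads. Of these 4534 lambda reads none was from Iglv3, which allows a share of up to 0.0662%. On build GRCm39, as the deposited table gives coordinates, the Ighv rows lie on chromosome 12 between 113542124 and 115964081, the Igkv rows on chromosome 6 between 67532481 and 70681161, and the Iglv rows on chromosome 16 between 18903767 and 19079609. The filter on low counts (edgeR's filterByExpr) kept 106 segments for the test, which were 48 Ighv, 56 Igkv and 2 Iglv, and left out 112. Ighv1-11 and Igkv8-16 were among those left out, so they were described and not tested.

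In TMM-scaled CPM, summed kappa segments were lower in S1pr1 KO than in WT lungs, with no overlap between the libraries, whereas heavy chain segments overlapped. The summed Igkv level was 33.5, 56.4, 69.9 and 60.8 CPM in S1pr1 KO 1 to 4, against 73.9, 75.1, 74.2 and 153 CPM in WT 1 to 4. The margin was narrow, between 69.9 CPM in S1pr1 KO 3 and 73.9 CPM in WT 1, and WT 4 stood far above the other WT libraries. The gap depended on the scaling. Relative to total counts, S1pr1 KO 3 (2630 Igkv reads of 36337246) lay above WT 3 (2535 of 35240009), so the groups overlapped. Igkc, the kappa constant row, was at 57.8 to 103 CPM in S1pr1 KO and 97.7 to 240 CPM in WT, which also overlapped. The group means were 55.1 ± 15.5 CPM in S1pr1 KO and 94.0 ± 39.2 CPM in WT (SD, n = 4 each), a log2 ratio of -0.77. That ratio was -0.43 without WT 4 and -0.78 without the library labelled S1pr1 KO 2. A sum over these rows was given no test.

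The summed Ighv level was 28.6, 39.4, 56.0 and 38.9 CPM in S1pr1 KO 1 to 4, against 37.8, 34.5, 34.1 and 62.9 CPM in WT 1 to 4. These ranges overlapped, the means were 40.7 ± 11.3 CPM in S1pr1 KO and 42.3 ± 13.8 CPM in WT (SD, n = 4 each), and the log2 ratio of -0.056 was 0.20 without WT 4. The summed Iglv level also overlapped, at 3.70 to 12.9 CPM in S1pr1 KO and 9.15 to 14.8 CPM in WT. The 3.70 CPM was that of the library labelled S1pr1 KO 2, and without it the S1pr1 KO libraries lay at 7.69 to 12.9 CPM.

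Over all 4 C3 KO libraries the sums ranged more widely than in WT and overlapped WT for each chain. Without the library labelled C3 KO 4 the range stayed wider than in WT for Ighv only. It was then narrower for Igkv (42.4 to 90.1 CPM, against 73.9 to 153 CPM in WT). For Iglv it was also narrower and lay below WT without overlap (5.36 to 6.82 CPM, against 9.15 to 14.8 CPM). The Ighv sum was 47.5, 62.9 and 18.4 CPM in C3 KO 1, 2 and 3 and 88.5 CPM in the library labelled C3 KO 4. The Igkv sum was 73.8, 90.1 and 42.4 CPM in C3 KO 1, 2 and 3 and 188 CPM in the library labelled C3 KO 4. C3 KO 3 was thus the lowest of its group and the library labelled C3 KO 4 the highest of all 12. The log2 ratio of C3 KO against WT was 0.36 for Ighv and 0.067 for Igkv, and 0.021 and -0.45 without the library labelled C3 KO 4. For Iglv it was -0.30, and -0.93 without that library, whose 18.9 CPM stood above the 5.36 to 6.82 CPM of the other 3. Against C3 KO, S1pr1 KO was at a log2 ratio of -0.42 for Ighv and -0.84 for Igkv, while leaving out the library labelled C3 KO 4 gave -0.077 and -0.32.

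The balance between heavy and light chain segments differed between S1pr1 KO and WT lungs in each library. Ighv made up 38.1%, 39.6%, 40.9% and 36.2% of all V segment reads in S1pr1 KO 1 to 4, against 31.3%, 28.8%, 28.7% and 27.3% in WT 1 to 4. Each S1pr1 KO library lay above each WT library, and the means were 38.7% ± 2.00 in S1pr1 KO and 29.0% ± 1.65 in WT (SD, n = 4 each), a difference of 9.69 percentage points. It was 9.39 points without the library labelled S1pr1 KO 2 and 10.7 points when the leading segment of each chain was taken out of each library. C3 KO libraries lay on both sides, with 37.0%, 39.7% and 27.7% in C3 KO 1, 2 and 3 and 30.0% in the library labelled C3 KO 4.

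Constant regions, which are joined to the V segments by splicing, allowed the same balance to be read from other rows. The 8 heavy chain constant rows took 70.7%, 71.5%, 72.7% and 70.8% of constant region reads in S1pr1 KO 1 to 4, against 73.1%, 71.9%, 69.2% and 69.1% in WT 1 to 4, so the groups overlapped. Per 100 heavy chain constant reads there were 16.9, 19.0, 17.6 and 18.4 Ighv reads in S1pr1 KO 1 to 4, against 11.9, 10.7, 12.2 and 10.6 in WT 1 to 4. The groups did not overlap, with means of 18.0 ± 0.912 in S1pr1 KO and 11.4 ± 0.787 in WT (SD, n = 4 each). The difference was 6.61, and leaving out each library in turn gave 6.28 (without the library labelled S1pr1 KO 2) to 6.97.

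For the kappa chain the groups overlapped. Per 100 Igkc reads there were 58.0, 74.2, 67.7 and 77.1 Igkv reads in S1pr1 KO 1 to 4, against 75.7, 67.9, 68.5 and 63.7 in WT 1 to 4. The means were 69.2 ± 8.50 in S1pr1 KO and 68.9 ± 4.95 in WT (SD, n = 4 each). Per 100 lambda constant reads there were 105, 55.2, 67.6 and 92.5 Iglv reads in S1pr1 KO 1 to 4. WT 1 to 4 had 47.7, 67.1, 65.9 and 59.5, so the groups overlapped here too. The lambda means were 80.2 ± 22.9 in S1pr1 KO and 60.1 ± 8.87 in WT (SD, n = 4 each). C3 KO 1, 2 and 3 had 35.8, 36.8 and 30.0, below the WT libraries, and the library labelled C3 KO 4 had 101. C3 KO libraries had 14.8, 17.4 and 8.21 Ighv reads per 100 heavy constant reads in C3 KO 1, 2 and 3 and 14.4 in the library labelled C3 KO 4, a spread that covered the WT range. Heavy chain constant rows include the membrane and secreted forms of several isotypes, and the composition of isotypes moved between libraries as given below. Its part in the ratio was not tested.

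**Figure D1:**
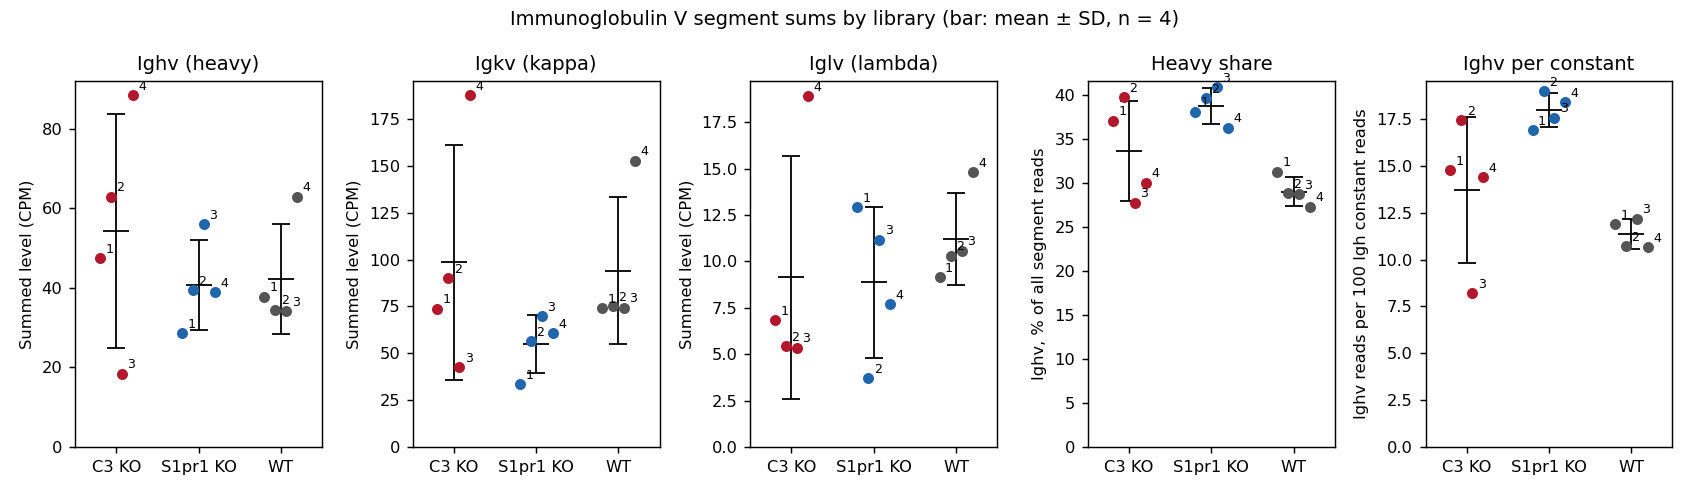
Points are libraries (numbered by replicate) of C3 KO, S1pr1 KO and WT lung, and bars are mean ± SD (n = 4). The first 3 panels give summed CPM per chain, and the last panels give the Ighv share of V segment reads in percent and Ighv reads per 100 heavy chain constant reads. In the last panels the S1pr1 KO points, 36.2% or more and 16.9 or more, lie above the WT points, at most 31.3% and 12.2.

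Lambda segments made up 27.8%, 6.16%, 13.8% and 11.2% of light chain V reads in S1pr1 KO 1 to 4, against 11.0%, 12.1%, 12.5% and 8.84% in WT 1 to 4. S1pr1 KO 1 stood highest, with an exact 95% Clopper-Pearson interval of 26.1% to 29.7%, and the library labelled S1pr1 KO 2 lowest in its group, with an interval of 5.23% to 7.19%. These intervals cover counting error only. The mean difference of 3.66 percentage points was -0.70 without S1pr1 KO 1. In C3 KO, lambda held 8.46%, 5.70% and 11.2% in C3 KO 1, 2 and 3 and 9.16% in the library labelled C3 KO 4. Iglv1, the more used of the lambda segments in mice, led Iglv2 in all 12 libraries, with between 64.3% and 85.2% of lambda counts per kilobase of listed length.

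Single segments dominated some libraries and none dominated a genotype. A segment's share is its counts per kilobase of listed length as a percentage of its chain in that library. Over the 12 libraries 11 heavy segments led, with Ighv1-26 leading in both C3 KO 2 and WT 3. The leading heavy share was 5.81%, 33.8% and 4.78% in C3 KO 1, 2 and 3 (Ighv1-9, Ighv1-26 and Ighv2-9) and 21.5% in the library labelled C3 KO 4 (Ighv1-11). It was 11.8%, 15.9%, 9.31% and 8.47% in S1pr1 KO 1 to 4 (Ighv7-3, Ighv1-18, Ighv1-80 and Ighv2-6-8), against 8.54%, 7.26%, 13.7% and 13.6% in WT 1 to 4 (Ighv1-53, Ighv1-42, Ighv1-26 and Ighv1-50). C3 KO held both the highest and the lowest values of the series, and the groups overlapped.

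The kappa leaders recurred more often. Igkv3-2 led in C3 KO 1, S1pr1 KO 1, S1pr1 KO 4 and WT 4, and Igkv1-117 in S1pr1 KO 3, WT 1, WT 2 and WT 3. The leading kappa share was 7.29%, 26.3% and 6.13% in C3 KO 1, 2 and 3 and 8.003% in the library labelled C3 KO 4. It was 5.90%, 15.9%, 9.68% and 12.2% in S1pr1 KO 1 to 4, against 7.22%, 7.45%, 13.9% and 10.9% in WT 1 to 4. C3 KO 2 and the library labelled S1pr1 KO 2, with Igkv14-111, stood highest.

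The effective number of segments, the inverse Simpson index of the shares, counts how many equally used segments would give the same evenness. For Ighv it was 38.5, 6.77 and 44.9 in C3 KO 1, 2 and 3 and 14.8 in the library labelled C3 KO 4. It was 26.5, 17.3, 30.6 and 23.9 in S1pr1 KO 1 to 4, against 28.2, 32.3, 23.6 and 21.6 in WT 1 to 4. For Igkv it was 40.1, 7.65 and 44.0 in C3 KO 1, 2 and 3 and 29.1 in the library labelled C3 KO 4, and it was 33.0, 17.2, 31.7 and 18.7 in S1pr1 KO 1 to 4, against 39.2, 33.5, 20.2 and 23.0 in WT 1 to 4. C3 KO 2 was the least even library for both chains and C3 KO 3 the most even. The group means lay within each other's spread, at 26.2 ± 18.3 for Ighv in C3 KO, 24.5 ± 5.58 in S1pr1 KO and 26.4 ± 4.80 in WT (SD, n = 4 each). Means over C3 KO 1, 2 and 3 alone were 30.1 for Ighv and 30.6 for Igkv, and means over S1pr1 KO 1, 3 and 4 alone were 27.0 for Ighv and 27.8 for Igkv. Without C3 KO 2 the Ighv difference of C3 KO against WT was 6.31, and without C3 KO 3 it was -6.39, so its sign depended on single libraries.

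**Figure D2:**
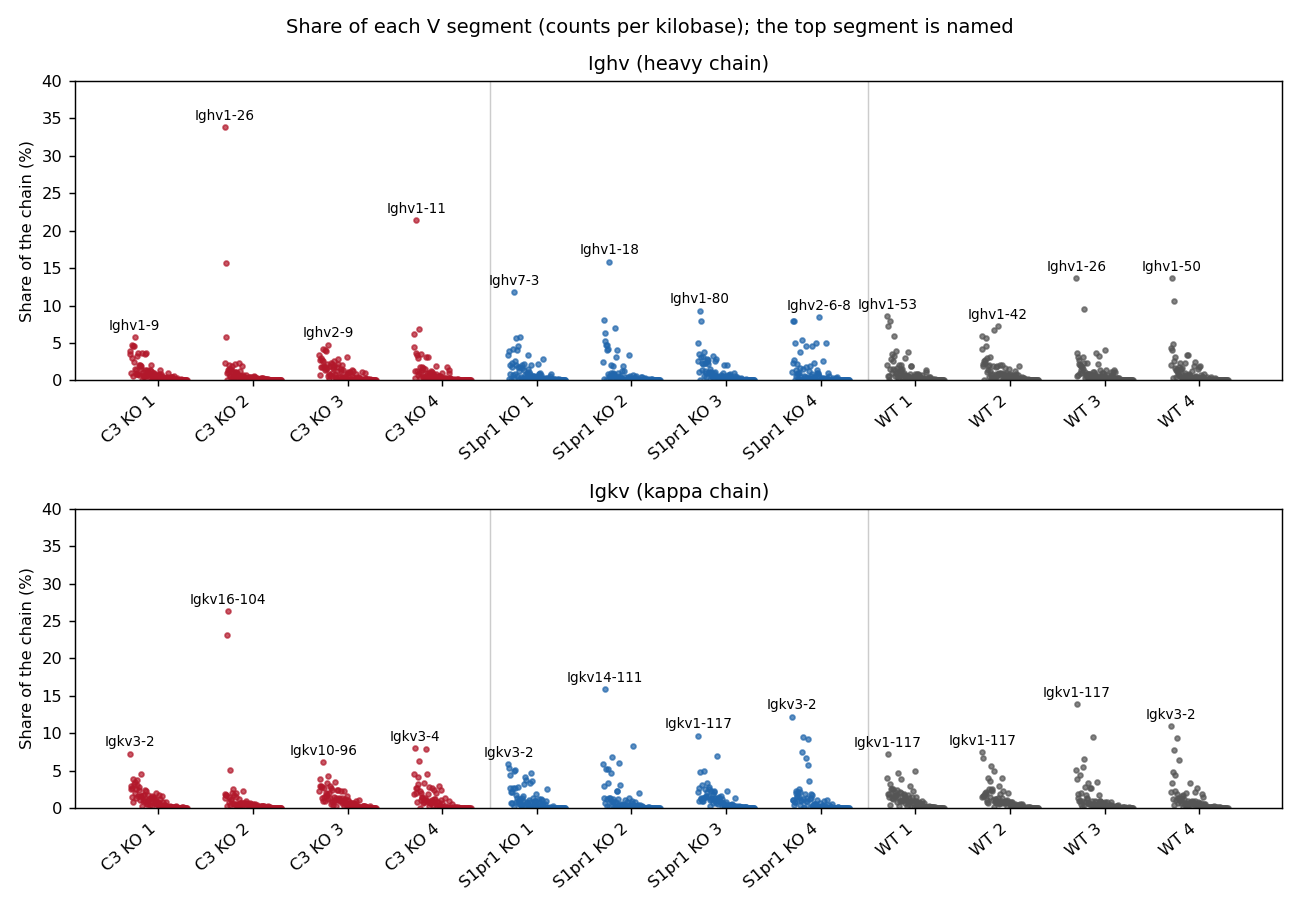
Each point is a V segment, and the vertical axis is its share of its chain in that library in percent, for Ighv above and Igkv below, with the same left-to-right order of segments in each library. The leading segment is named. C3 KO 2 stands apart with Ighv1-26 at 33.8% and Igkv16-104 at 26.3%.

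C3 KO 2 carried a pair of leading segments in each chain. Ighv1-26 was at 1.82, 20.3 and 0.583 CPM in C3 KO 1, 2 and 3, and the library labelled C3 KO 4 had 3.81 CPM, against 0.725, 1.98, 4.51 and 2.58 CPM in WT 1 to 4. Ighv1-50 was at 0.492, 10.5 and 0.139 CPM in C3 KO 1, 2 and 3, and the library labelled C3 KO 4 had 0.281 CPM, against 0.211, 0.823, 0.205 and 9.11 CPM in WT 1 to 4. Together with Ighv1-55, which was named for passing 5% after its values were seen, they held 55.4% of the heavy chain in C3 KO 2.

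Igkv16-104 was at 0.636, 24.4 and 0.389 CPM in C3 KO 1, 2 and 3, and the library labelled C3 KO 4 had 1.54 CPM, against 0.351, 1.56, 0.732 and 0.631 CPM in WT 1 to 4. Igkv6-15, named after its values were seen, was at 1.88, 19.6 and 1.14 CPM in C3 KO 1, 2 and 3, and the library labelled C3 KO 4 had 3.68 CPM, against 0.983, 1.12, 0.937 and 1.65 CPM in WT 1 to 4. Both were high in C3 KO 2 alone, at 26.3% and 23.1% of the kappa chain, and their sequences are 68.4% identical over 250 bases. The edgeR log2 fold change of C3 KO against WT was 3.04 (SE 1.19, adjusted p = 0.390) for Igkv16-104 and 2.49 (SE 0.94, adjusted p = 0.381) for Igkv6-15. Both rested on C3 KO 2, and leaving it out gave 0.078 (adjusted p = 0.986) for Igkv16-104 and 0.94 (adjusted p = 0.725) for Igkv6-15.

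The library labelled C3 KO 4 carried heavy and kappa segments that had few reads elsewhere. Ighv1-11 had 718 reads there, 18.4 CPM, against 0 to 25 reads in each of the other 11 libraries, so that 91.9% of its summed CPM lay in this library. Igkv8-16 had 593 reads there, 15.2 CPM, against 1 to 17 reads elsewhere, and 88.1% of its summed CPM lay in this library. Igkv1-122, named after its values were seen, was at 5.89 CPM there and at most 0.636 CPM elsewhere. Igkv3-4 was highest there but present throughout, with 14.7 CPM, against 0.623 to 4.99 CPM in the other 11 libraries.

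Other libraries had leading segments of their own. In the library labelled S1pr1 KO 2 Ighv1-18 had 5.94 CPM and Igkv2-112 had 4.62 CPM, against at most 0.907 and 0.187 CPM in the other 11 libraries. Ighv2-6-8 had 106 reads (3.15 CPM) in S1pr1 KO 4 and 0 reads in each WT library. Igkv4-70 was at 14.5 CPM in WT 4 and at most 4.71 CPM elsewhere, and Igkv8-28 at 6.97 CPM in WT 3 and at most 1.51 CPM elsewhere. In the library labelled C3 KO 4 Ighv1-47 had 3.07 CPM, in the library labelled S1pr1 KO 2 it had 2.98 CPM, and in the other 10 at most 0.111 CPM.

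Counts of the segments differed between libraries of a group by a chi-square per degree of freedom of 6.90 to 57.7, so no pair within a group looked like repeat deposits of 1 library.

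**Figure D3:**
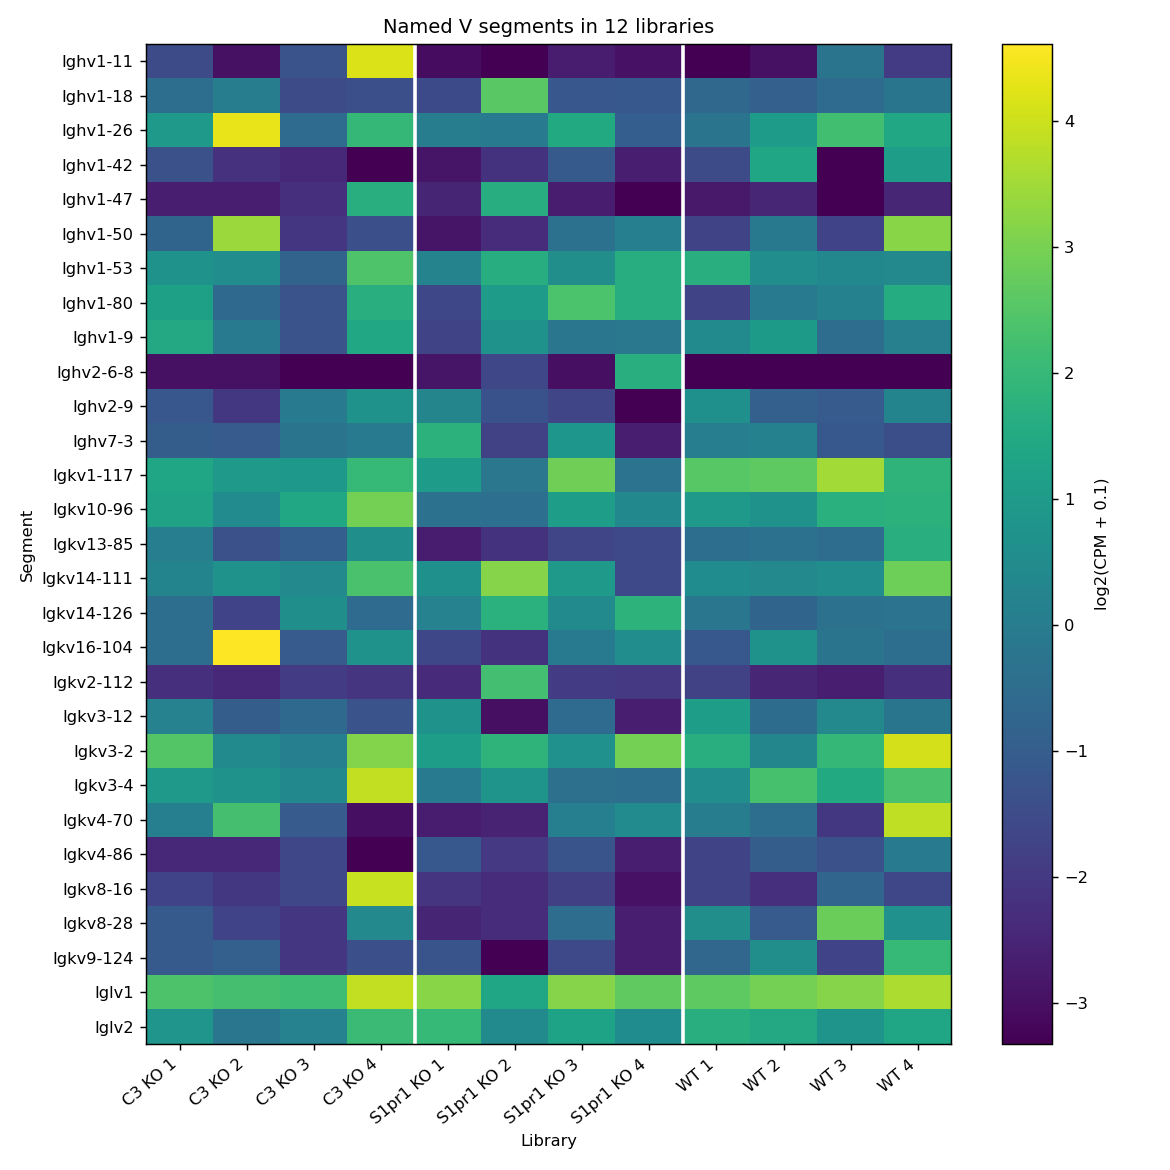
Rows are V segments named by the rule for leading, one-library and lowest-p segments (Iglv3, at 0 throughout, is left out) and columns are the 12 libraries; colour is log2(CPM + 0.1). Single bright cells, such as Igkv16-104 in C3 KO 2 (24.4 CPM) and Ighv1-11 in the library labelled C3 KO 4 (18.4 CPM), show segments high in 1 library.

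By position and family the groups overlapped. The 53 segments of the Ighv1 family, the largest of the 16 heavy families, held between 36.8% and 79.2% of heavy chain counts per kilobase over the 12 libraries. The 56 Ighv segments nearest to the constant regions held between 20.4% and 58.9%. Of the 100 Igkv segments, 38 lie on the strand of Igkc and 62 on the other, so that they join by deletion or by inversion, and the 38 held between 36.1% and 58.8% of the kappa chain.

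Segment by segment, no V segment passed edgeR's test between genotypes. In S1pr1 KO against WT, edgeR's quasi-likelihood test called 0 of 106 segments at an adjusted p under 0.05, while it called 1.35% of all 20229 genes tested, 0.821% higher and 0.534% lower. At an unadjusted p under 0.05 there were 20 of 106 (18.9%), against 18.0% of all genes, so the share was near that of all genes. DESeq2 called 5 of the 98 segments it gave an adjusted p (5.1%), against 6.34% of all genes (Igkv14-126 higher, and Igkv8-28, Igkv17-121, Igkv13-85 and Igkv9-124 lower in S1pr1 KO), and limma voom with quality weights called 1 of 106 (0.943%), Igkv8-19, which was higher, against 4.59% of all genes. Both shares lay below those of all genes. Without the library labelled C3 KO 4, whose group is not in this comparison but shares the estimate of the spread, edgeR called Igkv3-4 and Igkv13-85, both lower, 1.72% of the 116 segments then tested, against 2.77% of all genes.

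The directions were uneven between the chains in that comparison. Of the 56 kappa segments tested, 9 were higher and 47 lower in S1pr1 KO, and the median log2 fold change was -0.97. Of the 48 heavy segments, 23 were higher and 25 lower, with a median of -0.057, and over all genes tested the median was -0.0011. Segments of a library share their cells and are not replicates, so these counts carry no test. Without the library labelled S1pr1 KO 2, 12 of 60 kappa segments were higher and 48 lower, with a median of -0.997, and 29 of 60 heavy segments were higher and 31 lower, with a median of -0.20. Other omissions moved the heavy chain more. Without WT 4, 35 of 57 heavy segments were higher and 22 lower (median 0.31), and 15 of 58 kappa segments were higher and 43 lower (median -0.58). Without S1pr1 KO 3, 18 of 56 heavy segments were higher and 38 lower (median -0.60), and 8 of 59 kappa segments were higher and 51 lower (median -1.18). The heavy chain directions thus depended on single libraries, while most kappa segments were lower in each of these fits.

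The kappa segments of lowest p in S1pr1 KO against WT had few reads in S1pr1 KO. Igkv13-85 was at 0.0568, 0.124, 0.212 and 0.237 CPM in S1pr1 KO 1 to 4, against 0.632, 0.686, 0.615 and 3.04 CPM in WT 1 to 4. The groups did not overlap, and the log2 fold change was -3.01 (SE 0.72, edgeR adjusted p = 0.0623), with -2.06 and an adjusted p of 0.142 without WT 4. Igkv13-85 is 97.6% identical to Igkv13-84 over the last 250 bases, so their reads may have been split. Igkv13-84 held 0.24%, 0.326%, 0.531% and 1.71% of the kappa chain in S1pr1 KO 1 to 4. In WT 1 to 4 it held 0.27%, 4.03%, 0.169% and 0.385%, which overlapped. The gap of Igkv13-85 was not tested on the sum of this pair. Igkv8-28 was at 0.0757, 0.0994, 0.611 and 0.0594 CPM in S1pr1 KO 1 to 4, against 1.43, 0.384, 6.97 and 1.51 CPM in WT 1 to 4, giving -3.61 (log2 fold change, SE 1.00, edgeR adjusted p = 0.0860), or -2.40 without WT 3. Igkv9-124 was at 0 to 0.322 CPM in S1pr1 KO, against 0.205 to 3.90 CPM in WT, giving -3.18 (log2 fold change, SE 0.91, edgeR adjusted p = 0.0939), or -2.10 without WT 4. Leaving out the library labelled S1pr1 KO 2 gave -2.93 for Igkv13-85, -3.38 for Igkv8-28 and -2.79 for Igkv9-124.

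Segments whose groups did not overlap in S1pr1 KO against WT numbered 3 higher and 3 lower of 106 (2.83% each), against 6.16% and 5.18% of all genes. Igkv13-85, Igkv6-25 and Igkv4-57-1 were lower and Igkv14-126, Igkv8-19 and Ighv1-39 higher, and of these Igkv6-25, Igkv4-57-1, Igkv8-19 and Ighv1-39 were named after their values were seen, as was Igkv17-121. Igkv14-126 was at 1.04, 3.28, 1.30 and 3.38 CPM in S1pr1 KO 1 to 4, against 0.772, 0.494, 0.703 and 0.713 CPM in WT 1 to 4, giving 1.73 (log2 fold change, SE 0.51, edgeR adjusted p = 0.102), or 1.49 (adjusted p = 0.192) without the library labelled S1pr1 KO 2. Igkv8-19 was at 1.40, 1.76, 1.54 and 2.20 CPM in S1pr1 KO 1 to 4, against 1.26, 0.603, 0.234 and 0.466 CPM in WT 1 to 4, giving 1.40 (log2 fold change, SE 0.51, edgeR adjusted p = 0.176), or 1.39 without the library labelled S1pr1 KO 2. Igkv8-19 and Igkv8-28, whose fold changes had opposite signs, are 98% identical over their last 250 bases. Their summed level was 1.48, 1.86, 2.15 and 2.26 CPM in S1pr1 KO 1 to 4, against 2.69, 0.988, 7.20 and 1.98 CPM in WT 1 to 4, so for the sum of the pair the groups overlapped.

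In C3 KO against WT, edgeR called 0 of 106 segments, and 0.00989% of all genes, 0.00494% higher and 0.00494% lower. At an unadjusted p under 0.05 there were 9 (8.49%), against 11.0% of all genes, and DESeq2 and limma voom called 0 each, against 0.878% and 0.104% of all genes. Over the segments tested 60 were higher and 46 lower, with a median of 0.11 on the log2 scale. Without the library labelled C3 KO 4 the direction turned, with 38 of 116 higher, 78 lower and a median of -0.35. The lowest p-values were those of Igkv4-86 (-2.15, SE 0.74, edgeR adjusted p = 0.354), Ighv1-42 (-3.26, SE 1.16, edgeR adjusted p = 0.358) and Igkv9-124 (-2.28, SE 0.86, edgeR adjusted p = 0.381). Leaving out each library in turn gave -2.91 (without C3 KO 3) to -1.60 (without WT 4) for Igkv4-86, and -4.11 (without C3 KO 1) to -2.63 (without WT 2) for Ighv1-42. Igkv9-124 was at -1.19 (adjusted p = 0.635) without WT 4. Without the library labelled C3 KO 4 these segments were at -1.72, -2.82 and -2.23. Ighv1-42 was at 0.289, 0.117 and 0.0833 CPM in C3 KO 1, 2 and 3 and at 0 in the library labelled C3 KO 4, against 0.257, 2.41, 0 and 2.03 CPM in WT 1 to 4, so the groups overlapped. Of the 106 segments 0 lay above and 1 (Ighv9-1, named after its values were seen) lay below WT without overlap, against 3.00% and 3.09% of all genes.

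In S1pr1 KO against C3 KO, edgeR called 0 of 106 segments and 0 of all genes, so percent called was 0. At an unadjusted p under 0.05 there were 17 (16%), against 12% of all genes, and DESeq2 and limma voom called 0 segments each, against 1.57% and 0.178% of all genes. Of the segments tested 32 were higher and 74 lower, with a median of -0.56 on the log2 scale. Without the library labelled C3 KO 4, 52 of 116 were higher and 64 lower (median -0.087). Without the library labelled S1pr1 KO 2, 46 of 122 were higher and 76 lower (median -0.59). The lowest p-values were those of Igkv14-126 (1.63, SE 0.51, edgeR adjusted p = 0.275), Igkv13-85 (-2.34, SE 0.73, edgeR adjusted p = 0.275) and Igkv3-4 (-2.35, SE 0.78, edgeR adjusted p = 0.297), and Igkv3-4 was at -0.69 without the library labelled C3 KO 4. That omission gave 1.54 for Igkv14-126 and -1.85 for Igkv13-85, and leaving out the library labelled S1pr1 KO 2 gave 1.39, -2.26 and -2.73 for Igkv14-126, Igkv13-85 and Igkv3-4. Without overlap, 1 segment (Ighv11-2) lay above C3 KO and 3 (Igkv13-85, Ighv1-52 and Ighv5-6) below, against 3.55% and 2.84% of all genes. Ighv11-2, Ighv1-52 and Ighv5-6 were named after their values were seen. The comparisons against WT share the WT libraries, and those of S1pr1 KO share the S1pr1 KO libraries.

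**Figure D4:**
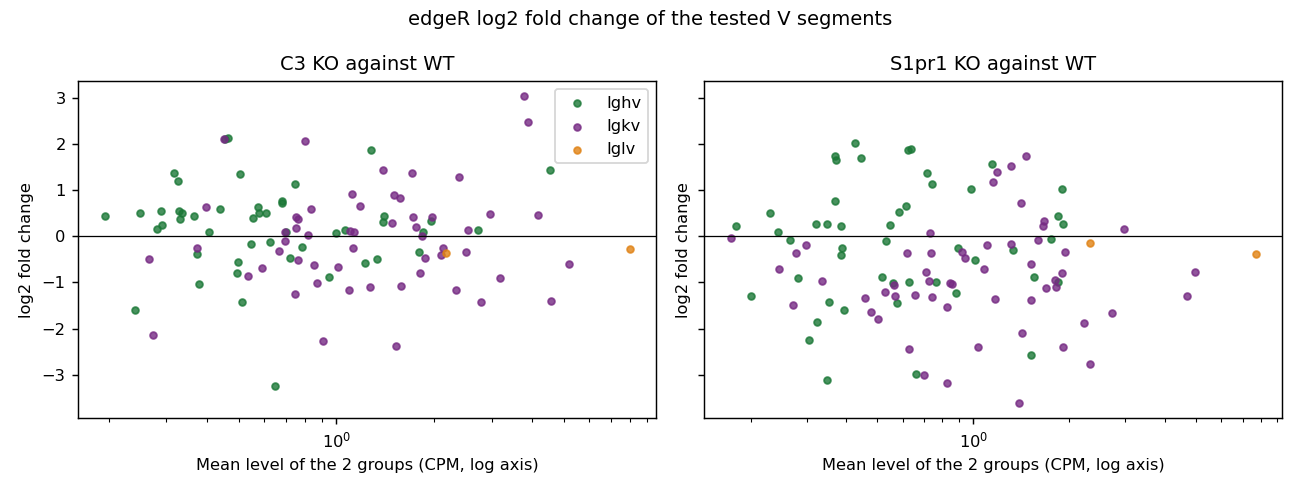
Each point is a tested V segment, with its mean CPM over the compared groups on a log horizontal axis and its edgeR log2 fold change on the vertical axis, for C3 KO against WT on the left and S1pr1 KO against WT on the right. On the right 47 of 56 kappa points lie below 0, while heavy chain points lie on both sides, 23 higher and 25 lower.

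The summed level of all V segments is set here beside Jchain, a plasma cell transcript whose protein joins IgA and IgM multimers, and Cd79a, a B cell transcript whose protein passes on the B cell receptor signal. Summed V segment levels were 128, 158 and 66.2 CPM in C3 KO 1, 2 and 3 and 295 CPM in the library labelled C3 KO 4, then 75.0, 99.5, 137 and 107 CPM in S1pr1 KO 1 to 4, against 121, 120, 119 and 230 CPM in WT 1 to 4. Jchain was at 22.8, 29.3 and 7.27 CPM in C3 KO 1, 2 and 3 and 77.4 CPM in the library labelled C3 KO 4, then 18.9, 25.0, 31.5 and 25.8 CPM in S1pr1 KO 1 to 4, against 20.3, 25.1, 23.8 and 62.6 CPM in WT 1 to 4. The library labelled C3 KO 4 and WT 4 ranked first and second in both, and C3 KO 3 last. Jchain is 1 gene of the plasma cell list, and the other genes of that list did not all rank in this way. Tnfrsf13b was lower in the library labelled C3 KO 4 (7.27 CPM) than in C3 KO 3 (13.5 CPM). Derl3 came close to the order of Jchain. It was highest in the library labelled C3 KO 4 (3.99 CPM), next in WT 4 (3.26 CPM) and lowest in WT 3 (1.93 CPM) and C3 KO 3 (1.94 CPM).

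Cd79a ranked the libraries otherwise. Its level was 43.4, 43.9 and 41.1 CPM in C3 KO 1, 2 and 3 and 11.8 CPM in the library labelled C3 KO 4, then 8.20, 7.60, 26.9 and 8.85 CPM in S1pr1 KO 1 to 4, against 44.5, 37.2, 20.4 and 36.2 CPM in WT 1 to 4. The ratio of V segments to Jchain ranged from 3.68 to 9.10 over the libraries, 2.47-fold, and the ratio to Cd79a from 1.61 to 25.1, 15.6-fold. C3 KO 3 had the lowest V segment sum with a high Cd79a level, and the library labelled C3 KO 4 the highest sum with a low one. These are descriptions over libraries that share their depth and their cells.

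The 18 B cell markers were lower in S1pr1 KO than in WT at 17 members, with a median of -1.01 on the log2 scale and 0 called by edgeR (all genes 1.35%). At an unadjusted p under 0.05 there were 12 of 18 (66.7%), against 18.0% of all genes. DESeq2 and limma voom called 1 each (Vpreb3, higher), against 6.34% and 4.59% of all genes. The summed marker level was 118, 119, 258 and 127 CPM in S1pr1 KO 1 to 4, against 358, 303, 183 and 286 CPM in WT 1 to 4. S1pr1 KO 3 lay within the WT range and the other 3 below it. In C3 KO the sum was 351 to 365 CPM in C3 KO 1, 2 and 3 and 146 CPM in the library labelled C3 KO 4. Of 13 plasma cell markers tested, 7 were higher and 6 lower in S1pr1 KO, with a median of 0.0024. Of these markers 0 were called by edgeR, by DESeq2, by limma voom and at an unadjusted p under 0.05, against 1.35%, 6.34%, 4.59% and 18.0% of all genes. Several of them, such as Sdc1 and Xbp1, are expressed by lung epithelium as well. The summed plasma cell list lay at 843 to 966 CPM in S1pr1 KO, against 861 to 926 CPM in WT. None of its markers with a narrow plasma cell range was at 0, but Tnfrsf17 was near the floor, between 0.0248 and 0.439 CPM. Its lowest value, in the library labelled S1pr1 KO 2, is that of 1 read.

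Markers of other cell types differed alongside the kappa sum. All 8 T cell markers tested were lower in S1pr1 KO than in WT, with a median of -0.78 on the log2 scale and 1 called by edgeR (all genes 1.35%). Their sum was 23.5 to 42.1 CPM in S1pr1 KO, against 38.5 to 62.1 CPM in WT. All 5 ciliated cell markers tested were higher, with a median of 0.59 and 1 called by edgeR (all genes 1.35%), and their sum was 351 to 468 CPM in S1pr1 KO, against 173 to 303 CPM in WT. Their part in the difference between segment levels was not tested.

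Constant region genes gave the isotypes behind the segments. In S1pr1 KO against WT, 10 of 11 tested constant rows were lower and 1 higher, with a median of -0.82 on the log2 scale. Of these rows 0 were called by edgeR (all genes 1.35%) and 4 (36.4%) had an unadjusted p under 0.05 (all genes 18.0%). DESeq2 called 1 (Iglc2, lower) and limma voom 0, against 6.34% and 4.59% of all genes. Ighm, the IgM heavy chain, averaged 134 ± 51.4 CPM in S1pr1 KO and 229 ± 73.8 CPM in WT (SD, n = 4 each), giving -0.77 (log2 fold change, SE 0.35, edgeR adjusted p = 0.262). Ighd, the IgD heavy chain of naive B cells, was at 6.59, 5.51, 29.6 and 5.79 CPM in S1pr1 KO 1 to 4, against 44.4, 36.9, 16.5 and 38.5 CPM in WT 1 to 4, giving -1.53 (log2 fold change, SE 0.62, edgeR adjusted p = 0.215). Igha, the IgA heavy chain, averaged 57.3 ± 16.1 CPM in S1pr1 KO and 70.9 ± 21.5 CPM in WT (SD, n = 4 each), giving -0.31 (log2 fold change, SE 0.37, edgeR adjusted p = 0.718). IgD was thus low in the same 3 S1pr1 KO libraries as the B cell markers, and IgA overlapped. Of the 8 joining (J) segments tested, 7 were lower and 1 higher in S1pr1 KO, with a median of -1.05. Of them 0 were called by edgeR (all genes 1.35%) and 4 (50%) had an unadjusted p under 0.05 (all genes 18.0%). Of 11 genes of V transcription, rearrangement and the germinal centre, 4 were higher and 7 lower, with a median of -0.32. Here too 0 were called by edgeR, and 3 (27.3%) had an unadjusted p under 0.05, against the same shares of all genes. DESeq2 and limma voom were not read for these 2 lists.

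The IgG rows Ighg1, Ighg2b, Ighg2c and Ighg3, of switched B and plasma cells, were highest in C3 KO 2, in the library labelled C3 KO 4 and in WT 4. Their sum was 20.5, 140 and 6.61 CPM in C3 KO 1, 2 and 3 and 170 CPM in the library labelled C3 KO 4, then 19.3, 13.6, 11.8 and 48.2 CPM in S1pr1 KO 1 to 4, against 6.95, 17.9, 35.6 and 112 CPM in WT 1 to 4. In C3 KO 2 the sum was mainly Ighg2b (101 CPM) and Ighg1 (24.2 CPM). In the library labelled C3 KO 4 it was mainly Ighg3 (76.1 CPM) and Ighg2b (71.4 CPM), in WT 4 Ighg3 (58.3 CPM) and in S1pr1 KO 4 Ighg2c (31.9 CPM). Which segment was joined to which constant region cannot be read from counts per gene.

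**Figure D5:**
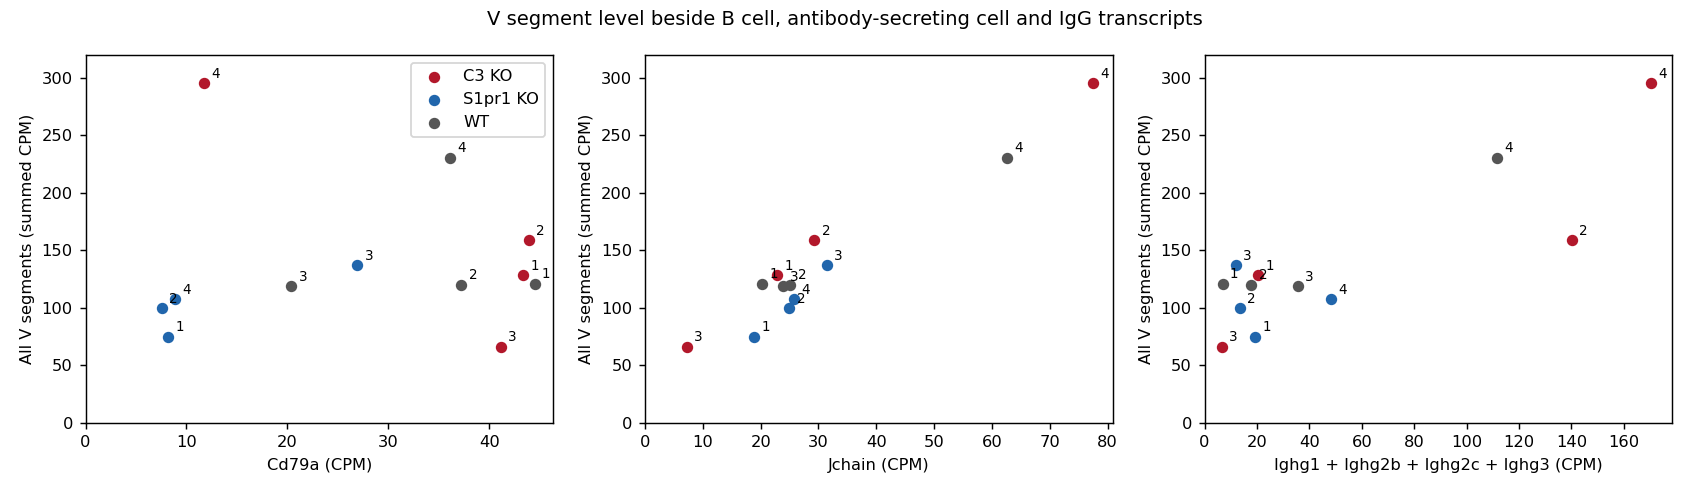
Points are the 12 libraries (numbered by replicate, coloured by group), with the summed CPM of all V segments on the vertical axis and CPM of Cd79a, of Jchain and of the 4 IgG constant rows on the horizontal axes. The library labelled C3 KO 4 (295 CPM) is highest beside Jchain and IgG and stands at a low Cd79a level of 11.8 CPM.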

How the data were processed

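The authors deposited whole-number read counts and FPKM values per gene for 12 libraries. CASAVA and STAR and the builds GRCm39 and mm39 are named, without versions, in the submitters' processing notes. Which tool counted reads, with what strand setting and gene annotation, is not given in the sources used here. Near-identical, overlapping or antisense rows may therefore share reads. The deposited FPKM values (scaled for length and depth) were used in 1 alternative. RNA was kept in RNAlater and extracted with QIAzol, and Novogene made the libraries, per the labels' protocols.

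The deposited counts entered edgeR 4.0.16 under R 4.3.3 (filterByExpr, TMM, quasi-likelihood, one mean per group over 12 libraries, 9 residual degrees of freedom), with Benjamini-Hochberg adjustment over 20229 genes and a threshold of 0.05. The test was tried on simulated counts first. Those counts had one common spread for all genes and changes only in the more abundant genes. They therefore do not show how well changes of V segments are found. The SE is the absolute log2 value over the square root of F. Chain sums, shares and effective numbers (Python 3.11.15) were described per library, without a test. Segment sequences were aligned with edlib 1.3.9.post1, and all 218 identifiers matched, 211 at the listed length. Alternatives were DESeq2 1.42.0, limma 3.58.1 voom, other scalings and filters, FPKM, medians, leading segments left out and each library left out.

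The members and lists were chosen with earlier results of these data known. Named segments were the 3 of lowest p in each comparison and, per chain, those leading in at least 1 library, the 3 of highest mean level per kilobase and up to 5 with 2 or fewer reads in 1 library and at least 2% of the reads of the chain in another; constant region rows of at least 1 CPM and marker genes were added. Shares relative to other chains and to constant regions were chosen after seeing the data. Total counts of 32274797 to 53063470 per library give 2383 to 11527 V segment reads each.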

Additional observations from a re-analysis of the deposited data

Results flagged for a closer look

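A library was picked out when its gap to the nearest other library of its group exceeded Dixon's 95% limit for 4 values, taken relative to the range of the group. Of 171 such checks 32 were met. Chance gives about 1 in 20, but many of the items were segments named because they stood high in 1 library, so the number met is set in part by that choice and is not read against that rate. The checks also share libraries.

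Of C3 KO libraries, C3 KO 2 stood apart for the leading kappa share (26.3%) and for Ighv1-26 (20.3 CPM), Ighv1-50 (10.5 CPM) and Igkv16-104 (24.4 CPM). The library labelled C3 KO 4 stood apart for the Iglv sum (18.9 CPM), Iglv1 (14.8 CPM), Ighv1-11 (18.4 CPM), Ighv1-47 (3.07 CPM), Igkv3-4 (14.7 CPM), Igkv8-16 (15.2 CPM), Igkv14-111 (4.94 CPM) and Ighg3 (76.1 CPM). It also had 101 Iglv reads per 100 lambda constant reads, against at most 36.8 in C3 KO 1, 2 and 3.

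Of S1pr1 KO libraries, the library labelled S1pr1 KO 2 stood apart for Ighv1-18 (5.94 CPM), Ighv1-47 (2.98 CPM) and Igkv2-112 (4.62 CPM), S1pr1 KO 3 for Igkv8-28 (0.611 CPM) and Ighd (29.6 CPM), and S1pr1 KO 4 for Ighv2-6-8 (3.15 CPM) and Ighg2c (31.9 CPM).

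Of WT libraries, WT 4 stood apart for the Ighv sum (62.9 CPM), the Igkv sum (153 CPM), Ighv1-50 (9.11 CPM), Igkv3-2 (17.0 CPM), Igkv4-70 (14.5 CPM), Igkv13-85 (3.04 CPM), Igkv14-111 (7.21 CPM), Ighg3 (58.3 CPM), Igkc (240 CPM) and Jchain (62.6 CPM). WT 1 stood apart for Ighv1-53 (3.09 CPM) and WT 3 for Igkv8-28 (6.97 CPM).

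Heavy chain V pseudogene rows, which no comparison used, summed to 5.37 CPM (210 reads) in the library labelled C3 KO 4, of which 123 reads fell on Ighv1-14, against 0 to 0.528 CPM in the other 11 libraries.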

How the results depend on the processing

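Over all alternatives 891 values stayed within 1 SD of the libraries or on their side of the threshold, 6 counts moved and 4 fold changes newly passed. Leaving out 1 of 4 libraries cannot move a difference of group means by 1 SD, so for those differences staying was fixed in advance. The 891 also hold values whose sign changed, such as the Ighv effective number difference of C3 KO against WT (-6.39 to 6.31). The tally is therefore not a measure of robustness. Counts of V segments called in S1pr1 KO against WT were 0 of 106 by edgeR, 5 of 98 by DESeq2 (5.1%, all genes 6.34%) and 1 of 106 by limma voom (0.943%, all genes 4.59%), and 0 to 2 when each library was left out, the 2 arising without the library labelled C3 KO 4. In the same comparison 1 constant region row (DESeq2) and 1 B cell marker (DESeq2, limma voom) were called. Igkv13-85 passed without the library labelled C3 KO 4 (adjusted p = 0.0445) and by DESeq2 (adjusted p = 0.00155), as did Igkv8-28 (adjusted p = 0.00357) and Igkv9-124 (adjusted p = 0.00933) by DESeq2. The cause was not tested. Over all genes DESeq2 called 1279 of 20170 in S1pr1 KO against WT (limma voom 928 of 20229, edgeR 274), 177 in C3 KO against WT (edgeR 2) and 317 in S1pr1 KO against C3 KO (edgeR 0). Log2 ratios of sums whose sign changed when a library was left out were Ighv in S1pr1 KO against WT (-0.25 to 0.20), Igkv in C3 KO against WT (-0.45 to 0.40) and Iglv in S1pr1 KO against C3 KO (-0.28 to 0.60). No paired analysis was possible because replicate numbers follow the order of deposition. The filter of 1 CPM in 4 libraries and the fits of only 2 groups left some named segments out, so no value exists there. Depth limits segments of few reads, since 1 read is 0.0189 CPM in S1pr1 KO 1 and 0.0297 CPM in S1pr1 KO 4.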
